A study of Rattus norvegicus with 6 samples.

Results

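The proteasome is the protein machine that degrades proteins tagged with ubiquitin. Its core particle is a barrel of alpha rings, which form the gate, and beta rings, some of whose subunits carry the proteolytic sites. The regulatory particle caps the barrel: its ATPases unfold the substrate and thread it in, and its non-ATPase subunits bind and remove ubiquitin and hold the lid together. The genes of the subunits are known to be induced together, through the transcription factor Nfe2l1 when proteasome capacity is short and in part through NRF2 during oxidative stress. The list examined here was given by gene symbol: 32 genes, of which 14 encode the core particle (Psma1 to Psma7 and Psmb1 to Psmb7), 17 encode the regulatory particle (6 ATPases of the Psmc family and 11 Psmd subunits), and 1, Pomp, encodes the maturation factor that helps beta rings to assemble. A probe named through RefSeq was found for 31 of the 32, all except Psmd11, and all 31 were among the 11748 genes tested. Each of the 31 was well above background on all 6 arrays, so none entered through 1 group alone.

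Renal cortex of 6 male Sprague-Dawley rats, 5 weeks old at purchase, was compared by single-colour array: 3 rats had been given corn oil and 3 had been given 2-amino-4-nitrophenol (called treated below), an aromatic amine known as a hair dye ingredient, at a dose of 750 mg/kg/day. Both courses lasted 4 weeks, and each rat was a biological replicate with 1 array. All treated arrays lay in row 2 of slide 1, and corn oil replicates 1 and 3 in row 1 of it. Corn oil replicate 2 lay in row 2 of slide 2. Within slide 1, row and treatment therefore cannot be told apart. The tissue was whole cortex, in which fewer cells of a type and less RNA per cell cannot be told apart. The proximal tubule markers Lrp2, Cubn, Slc34a1, Slc5a2, Slc22a6 and Slc22a8 were well above background on all 6 arrays, as were the podocyte markers Nphs1 and Podxl and the collecting duct markers Aqp2, Aqp3 and Scnn1g. Treated arrays had a lower 75th percentile of signal (564 to 685, lowest on replicate 2) than corn oil arrays (743 to 852). Probes well above background made up 68.1% to 70.9% and 61.6% to 66.3% of each array. Values below are log2 signals relative to the array's own 75th percentile unless another scaling is named, and the small number of arrays limits their precision.

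Relative to the 75th percentile, proteasome genes had slightly higher signals on the treated arrays, by amounts that did not pass the test across all genes. All 31 measured members had a positive log2 change (treated minus corn oil), from 0.017 for Psmd2 to 0.42 for Psmb6, with a median of 0.25, where 57.4% of all genes tested had a positive change and their median was 0.044. In limma 0 of the 31 passed an adjusted p of 0.05 (0.0255% of all genes did, 3 in number), and the lowest adjusted p was 0.130, for Pomp. At an unadjusted p under 0.05, 19 members were higher and 0 lower, beside 14.3% and 7.29% of all genes tested. For 26 members every treated array lay above every corn oil array, and for 0 every treated array lay below, beside 20.1% and 10.1% of all genes. The count of 19 was 9 without corn oil replicate 1, 13 without replicate 2 (the only array on its slide) and 8 without replicate 3. The shares of all genes tested were then 9.58%, 9.57% and 8.5%. Without treated replicates 1, 2 and 3 the count was 23, 10 and 7, beside 20%, 11.9% and 8.61% of all genes. The direction itself depended on the scaling: after scaling on spike-in controls, which moved the median change of all genes by -0.32, 6 of the 31 had a positive change, beside 14.1% of all genes. The median of the 31 was then -0.069. Spike-in scaling moves every gene by the same amount, so the distance of 0.21 between that median and the median of all genes is the same by construction.

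**Figure D1:**
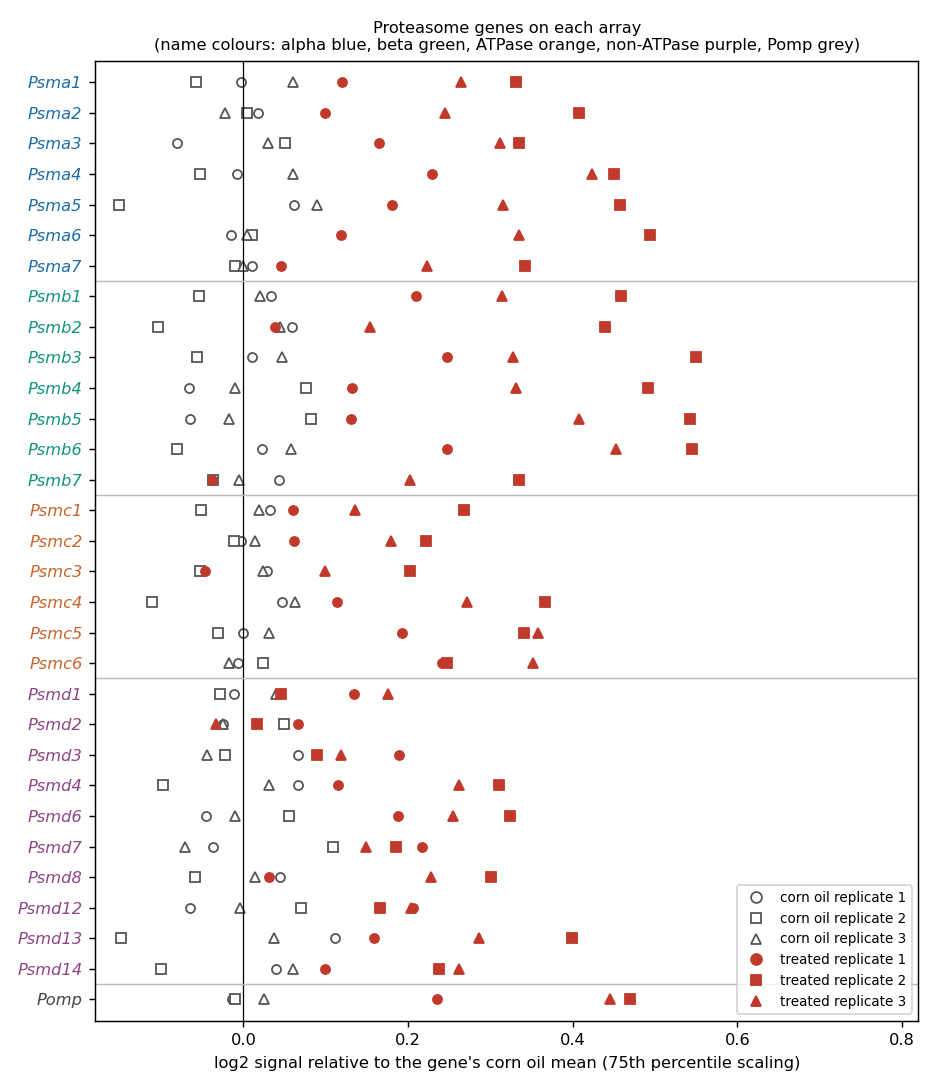
Log2 signal of each of the 31 measured proteasome genes on each array, relative to the mean of its 3 corn oil arrays (75th percentile scaling; open symbols corn oil, filled symbols treated, shapes mark replicates, name colours mark the subunit class). For 26 genes the 3 treated points lie to the right of all corn oil points, and in all 14 core genes treated replicate 1 is the lowest and replicate 2 the highest treated point. After spike-in scaling 25 of the 31 changes are below 0.

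The promoters of 3 members are shown because these genes mark the ends of the range: Psmb6 and Psmb3 had the largest changes in the core particle and Psmd2 the smallest of all. The windows run from 250 bases before to 50 bases after the RefSeq gene start (GRCr8), 5′ to 3′ on the gene's strand, and capitals mark matches on either strand to TGACNNNGC, the core of the antioxidant response element, or to CCAAT, the letters of the CCAAT box. The motifs were chosen after the values were seen.
Psmb6, chr10:55737638-55737937, plus strand: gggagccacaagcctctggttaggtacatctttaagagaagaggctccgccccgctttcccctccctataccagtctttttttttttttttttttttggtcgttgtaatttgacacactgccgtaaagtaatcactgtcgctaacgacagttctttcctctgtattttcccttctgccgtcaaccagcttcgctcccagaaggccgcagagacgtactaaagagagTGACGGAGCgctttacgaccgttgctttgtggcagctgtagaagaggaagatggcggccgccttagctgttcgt
Psmb3, chr10:83193537-83193836, plus strand: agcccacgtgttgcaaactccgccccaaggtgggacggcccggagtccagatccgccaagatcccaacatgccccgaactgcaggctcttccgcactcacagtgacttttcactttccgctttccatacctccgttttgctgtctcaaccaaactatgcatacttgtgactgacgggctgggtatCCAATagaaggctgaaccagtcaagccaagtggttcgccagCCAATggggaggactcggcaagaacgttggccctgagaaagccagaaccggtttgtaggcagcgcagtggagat
Psmd2, chr11:93763339-93763638, minus strand: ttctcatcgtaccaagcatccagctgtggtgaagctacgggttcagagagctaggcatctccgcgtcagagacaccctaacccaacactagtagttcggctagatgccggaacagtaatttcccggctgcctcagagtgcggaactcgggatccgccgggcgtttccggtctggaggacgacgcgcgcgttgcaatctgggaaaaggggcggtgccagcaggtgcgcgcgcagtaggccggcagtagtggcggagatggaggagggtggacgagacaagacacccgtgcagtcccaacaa

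Psmb6 thus holds TGACNNNGC and no CCAAT, Psmb3 holds CCAAT at 2 places, and the Psmd2 window holds neither. Of the 28 members with a promoter in the RefSeq table (no entry for Psma7, Psmd6, Psmd12 and Psmd14), 6 hold TGACNNNGC: Psma3, Psmb2, Psmb5, Psmb6, Psmd1 and Psmd3. That is 21.4% of the members, beside 14.4% of the promoters of genes tested and 12.1% of all promoters in the table. In Psmb5 the match reads TGACGTCGC, starting 60 bases before the gene start, and in Psmb6 it reads TGACGGAGC, starting 24 bases before it. The median log2 change was 0.24 for the 6 with a match and 0.25 for the 21 tested members without, with overlapping ranges of 0.12 to 0.42 and 0.017 to 0.38. CCAAT was found in 9 of 13 core promoters and 5 of 14 regulatory promoters, beside 37.9% of the promoters of genes tested. A match describes letters only, and in Psmb2 the matches to the 2 motifs share 1 base.

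Among the alpha subunits, which form the outer rings and the gate, the 7 changes ran from 0.20 (Psma7) to 0.37 (Psma4), with a median of 0.27. All 7 had treated arrays above all corn oil arrays, and 6 had an unadjusted p under 0.05 in limma. The shares of all genes tested were 20.1% and 14.3%. Psma7 had log2 levels of 5.05, 5.03 and 5.04 on the corn oil arrays and 5.08, 5.38 and 5.26 on treated replicates 1, 2 and 3, a change of 0.20 ± 0.097 (SE, n = 3 per group; limma adjusted p = 0.279). Treated replicate 1 thus lay close to the corn oil arrays and replicate 2 farthest from them. Psma4 had 5.51, 5.46 and 5.58 against 5.75, 5.97 and 5.94, a clear gap between the groups, and its other probe gave a change of 0.30. The changes of Psma1, Psma2, Psma3, Psma5 and Psma6 lay between 0.24 and 0.32.

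The beta subunits had a median change of 0.33 and included both the largest and the smallest changes of the core particle. Psmb6, the caspase-like proteolytic subunit, had log2 levels of 2.72, 2.62 and 2.76 on the corn oil arrays and 2.95, 3.24 and 3.15 on treated replicates 1, 2 and 3. Its change was 0.42 ± 0.10 (1.33-fold; adjusted p = 0.131 in limma), and the groups did not overlap. Psmb5, the chymotrypsin-like subunit and the target of bortezomib, had 4.39, 4.54 and 4.44 against 4.59, 5.0002 and 4.87. Its change was 0.36 ± 0.12 (1.28-fold; adjusted p = 0.184), with treated replicate 1 just above the highest corn oil array. Psmb7, the trypsin-like subunit, had 3.16, 3.08 and 3.11 against 3.08, 3.45 and 3.32. Treated replicate 1 lay just below the lowest corn oil array, and the change was 0.17 ± 0.11 (95% interval -0.11 to 0.44, limma adjusted p = 0.420). The proteolytic subunits therefore had different sizes of change, and no difference between them was tested.

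Of the structural beta subunits, Psmb3 had log2 levels of 4.64, 4.57 and 4.68 on the corn oil arrays and 4.88, 5.18 and 4.96 on the treated arrays, without overlap. Its change was 0.37 ± 0.10 (adjusted p = 0.144), and its other probe gave 0.35. Psmb1 and Psmb4 had changes of 0.33 and 0.32, also without overlap, while Psmb2 (0.21) overlapped through treated replicate 1. Pomp, the maturation factor of the core, had 5.83, 5.83 and 5.87 on the corn oil arrays and 6.08, 6.31 and 6.29 on the treated arrays. The corn oil arrays were close together and the treated arrays all above them, with a change of 0.38 ± 0.092 (1.30-fold; adjusted p = 0.130).

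The regulatory particle had smaller changes than the core, with a median of 0.19 over 16 measured subunits. Its 6 ATPases ran from 0.086 (Psmc3) to 0.30 (Psmc5). Psmc5 had log2 levels of 5.68, 5.65 and 5.71 on the corn oil arrays and 5.87, 6.02 and 6.04 on the treated arrays, a change of 0.30 ± 0.082 (1.23-fold; adjusted p = 0.144). Psmc3 had 3.22, 3.14 and 3.21 against 3.14, 3.39 and 3.29, so that treated replicate 1 lay in the corn oil range, and its change was 0.086 ± 0.092 (adjusted p = 0.614). The other ATPases, Psmc1, Psmc2, Psmc4 and Psmc6, had changes of 0.15, 0.15, 0.25 and 0.28, each without overlap.

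Among the 10 measured non-ATPase subunits the changes ran from 0.017 to 0.28. For 8 of them the treated arrays lay above all corn oil arrays, beside 20.1% of all genes tested. Psmd13, a lid subunit, had log2 levels of 1.95, 1.69 and 1.87 on the corn oil arrays and 2.00, 2.24 and 2.12 on the treated arrays, a change of 0.28 ± 0.11 (adjusted p = 0.210). The lowest treated array lay only just above the highest corn oil array. Psmd4, which binds ubiquitin chains, had 3.71, 3.55 and 3.68 against 3.76, 3.96 and 3.91, a change of 0.23 ± 0.092 (adjusted p = 0.225). Psmd14, which cuts ubiquitin off the substrate, had 1.09, 0.95 and 1.11 against 1.15, 1.29 and 1.31, a change of 0.20 ± 0.089 (adjusted p = 0.257). In both genes the groups were apart, again with treated replicate 1 the nearest to corn oil.

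Psmd2, the large scaffold subunit that docks ubiquitin carriers, stood at the low end. Its log2 levels were 5.56, 5.64 and 5.57 on the corn oil arrays and 5.66, 5.61 and 5.56 on the treated arrays, so that the groups overlapped, with a change of 0.017 ± 0.075 (95% interval -0.17 to 0.20; adjusted p = 0.916). Its other probes gave 0.12 and -0.023, the latter being the only negative change among the 21 further probes of the members. For 16 of the 17 members with more than 1 probe, all probes had positive changes. Psmd1, the other large scaffold, had 0.12, and Psmd3, Psmd6, Psmd7, Psmd8 and Psmd12 had 0.13, 0.26, 0.18, 0.19 and 0.19. Of these, Psmd8 overlapped between the groups.

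The core particle and the regulatory particle differed by a median of 0.13 in log2 change (0.32 against 0.19), a contrast that no scaling constant can alter because it is formed within each array. Of the 14 core genes 13 lay above the median of the regulatory particle, and 0 of the 16 regulatory genes lay above the median of the core. The contrast was not the same on the 3 treated arrays. Relative to corn oil means, the median of the core minus that of the regulatory particle was 0.0057, 0.21 and 0.099 on treated replicates 1, 2 and 3. Corn oil arrays gave -0.0039, -0.015 and 0.0084. Treated replicate 1 therefore lay within the corn oil range, and without treated replicate 2 the contrast was 0.053. Since the genes were chosen with earlier results known, it is given without a test.

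**Figure D2:**
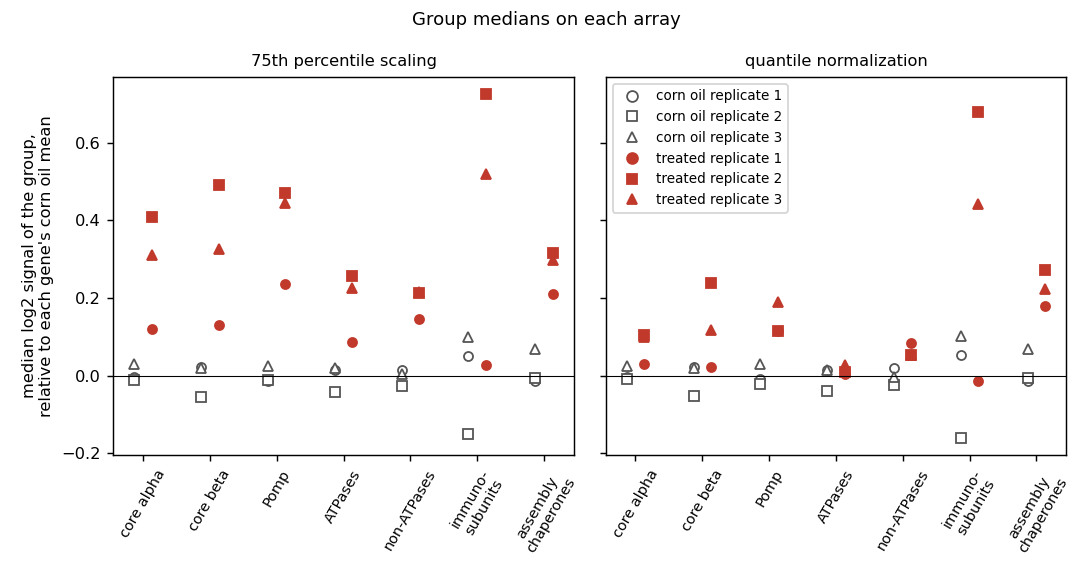
Median log2 signal of each subunit group on each array, with the corn oil mean of the gene set to 0, for 75th percentile scaling (left) and quantile normalization (right). On the left the core medians of treated replicates 2 and 3 exceed those of replicate 1. On the right the ATPase medians of the treated arrays lie within the corn oil range or just above it, and under spike-in scaling, not drawn, the medians of both particles are below 0.

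The spread over the treated animals had a median SD of 0.15 in the core particle and 0.085 in the regulatory particle, against 0.058 and 0.052 over the corn oil animals. All 14 core genes had their highest treated level on replicate 2 and their lowest on replicate 1. Over all genes tested, replicate 2 was the highest treated array for 46.4% and replicate 1 the lowest for 45%. In the core the medians of treated replicates 1, 2 and 3 were 0.13, 0.45 and 0.31, while corn oil arrays had 0.010, -0.045 and 0.025. Those of the regulatory particle were 0.13, 0.24 and 0.22. The SD over the treated animals exceeded that over the corn oil animals for 27 of the 31 members, where it did so for 67.8% of all genes tested. After quantile normalization it did so for 20 of the 31 members and for 7699 of the 11748 genes tested. The median SD in the core was then 0.074 over treated and 0.057 over corn oil animals. Markers of fibroblasts followed the same order on the treated arrays: the median of the 4 measured (Col1a1, Col1a2, Col3a1 and Pdgfrb) was -0.40, 0.47 and 0.12 on replicates 1, 2 and 3, and their summed linear signal was 15 to 18 times the 75th percentile in corn oil rats and 12.7 to 23.9 times in treated rats. Markers of red blood cells and their precursors (Hbb, Ahsp and Alas2) were instead highest on replicate 1, with a median of 2.30 against 0.62 and 1.56. Tubule markers moved in both directions, with no adjusted p under 0.05 in limma. Of the 6 proximal tubule markers, Lrp2 (-0.34) was lower without overlap, Slc34a1 (0.19) and Slc22a6 (0.14) were higher without overlap, and Cubn (-0.52), Slc5a2 (-0.15) and Slc22a8 (0.056) overlapped. Their summed linear signal was 1050 to 1140 times the 75th percentile in corn oil rats and 1100 to 1160 times in treated rats. The thick ascending limb marker Umod (0.45) was higher without overlap, the collecting duct markers Aqp3 (-0.31) and Scnn1g (-0.45) were lower without overlap, and Aqp2 (0.18) overlapped. After quantile normalization 5 of the 6 proximal tubule markers, all except Slc22a6, were lower without overlap, beside 13.6% of all genes tested. The part of other cell types, and of shifts among tubule segments, in the proteasome values was not tested.

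Log2 change varied with the brightness of the probe over all genes, and the part of brightness in the proteasome values was not tested. With the genes tested put into 10 equal bins by mean signal, the dimmest bin had a median log2 change of -0.12 and the brightest bin one of 0.23. Of the 31 members 16 lay in the brightest bin and 10 in the next. The change was positive for 84.2% and 76.6% of all genes in these bins, and for every member. In the brightest bin the members had a median change of 0.25, against 0.23 for all its genes, and the treated arrays lay above the corn oil arrays for 14 of the 16 members and for 53.5% of all its genes. In the next bin the median was 0.26 for the members and 0.13 for all genes, and there was no overlap for 7 of the 10 members and for 34.4% of all genes. The pattern over animals was shared as well: all genes of the brightest bin had medians of 0.12, 0.34 and 0.24 on treated replicates 1, 2 and 3, and the 31 members had 0.13, 0.34 and 0.26. Within the brightest bin, the 8 core genes had a median of 0.32 and the 7 regulatory genes of 0.15, on either side of the median of all genes there.

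**Figure D3:**
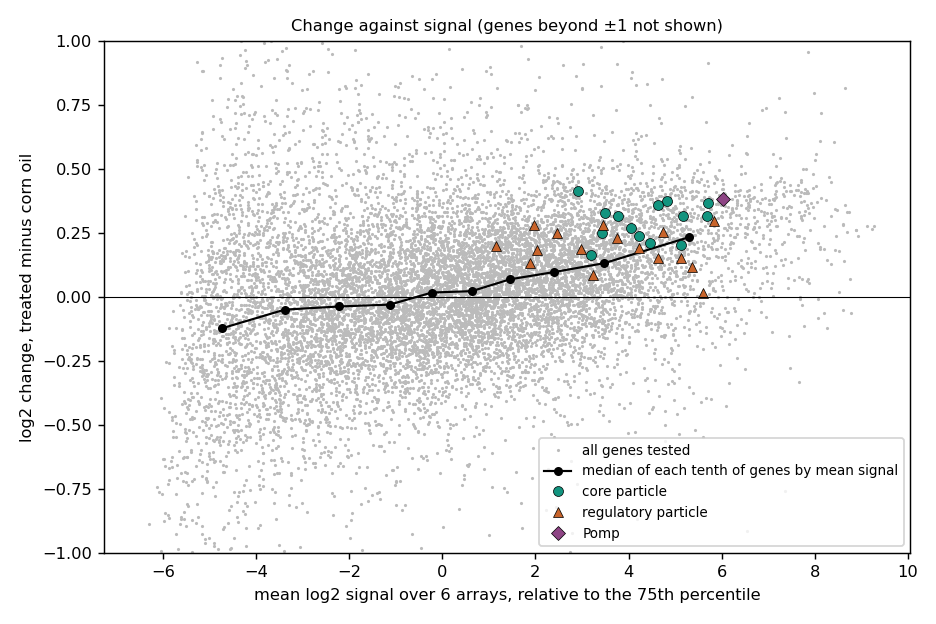
Log2 change (treated minus corn oil, 75th percentile scaling) against mean log2 signal for all genes tested (grey) with the median of each of 10 bins of genes by signal (black line), and proteasome genes in colour. The line climbs from -0.12 to 0.23, and most core genes lie above it while regulatory genes lie on both sides of it. Genes with a change beyond 1 in either direction are not drawn, and under spike-in scaling the same points sit 0.32 lower.

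Quantile normalization, which gives every array the same distribution of signals, took away most of the size of the change and kept its sign in most members. The median over the 31 members became 0.073, and 25 had a positive change, beside 49.3% of all genes tested. At an unadjusted p under 0.05 in limma, 1 member was higher and 0 lower (8.23% and 9.53% of all genes), and 0 passed an adjusted p of 0.05 (0.034% of all genes did). Treated arrays lay above all corn oil arrays for 10 members and below them for 2, beside 12.4% and 13.6% of all genes. The member at an unadjusted p under 0.05 was Psmb6, with a change of 0.30 ± 0.084, and the members whose arrays were lower without overlap were Psmc2 (-0.060) and Psmd2 (-0.22). The brightest probe was the same as before for all 31.

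The core kept a higher median than the regulatory particle after quantile normalization, at 0.10 against 0.058, but the contrast shrank to 0.045. Treated replicates 1, 2 and 3 had -0.035, 0.13 and 0.056, while corn oil arrays had -0.0021, -0.0053 and 0.0099. Of the 14 core genes 10 now lay above the median of the regulatory particle, and 4 of the 16 regulatory genes lay above the median of the core. Here 13 of 14 core genes had a positive change, all except Psma7 (-0.013), and 11 of 16 regulatory genes did. The regulatory exceptions were Psmc1, Psmc2, Psmc3, Psmd1 and Psmd2. After spike-in scaling 5 core genes (Psma4, Psmb1, Psmb3, Psmb5 and Psmb6) and Pomp had positive changes and 0 regulatory genes did, with medians of -0.0026 for the core and -0.13 for the regulatory particle.

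**Figure D4:**
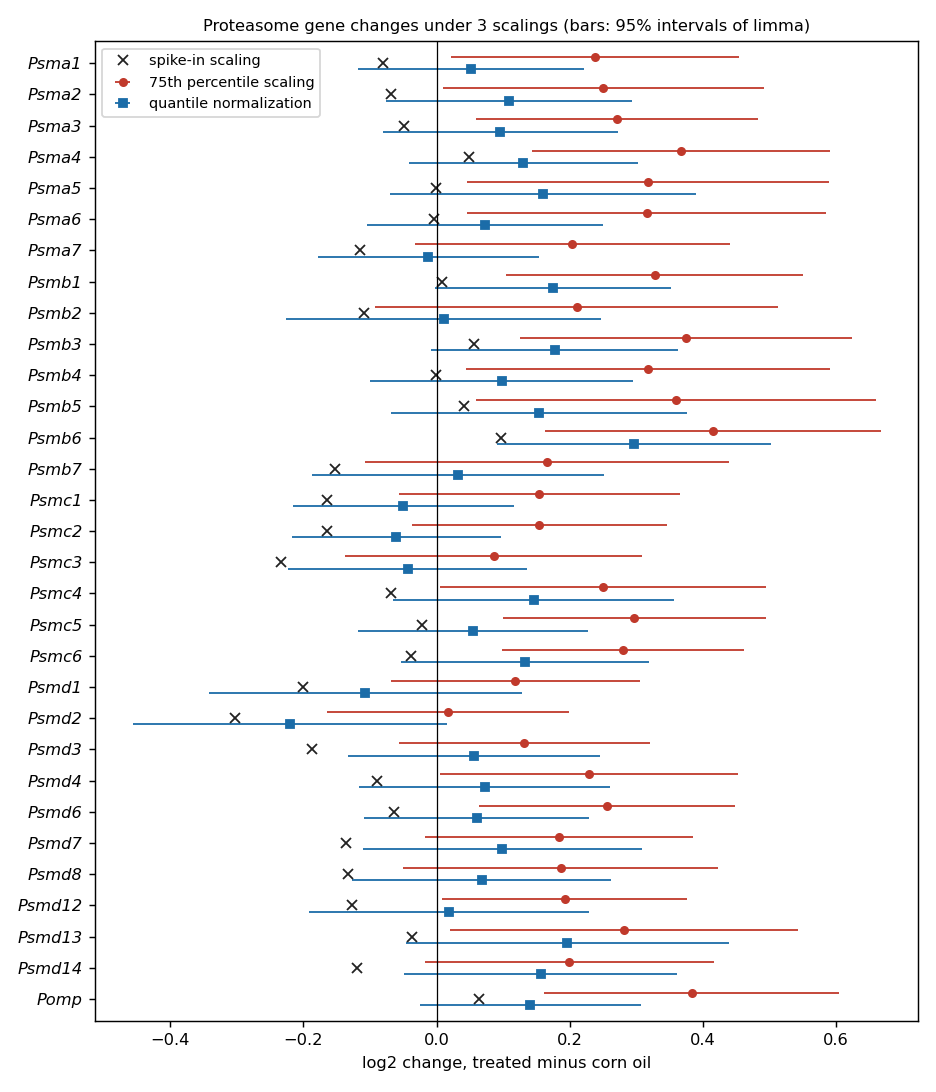
Log2 change of each measured proteasome gene with 75th percentile scaling (circles), quantile normalization (squares) and spike-in scaling (crosses), with 95% intervals of limma for the former pair. Quantile normalization moves every gene toward or below 0 and leaves Psmb6 as the 1 interval above 0, and spike-in scaling puts 25 of 31 below 0.

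The other genes of the pathway were taken from a fixed list of 35, of which 31 were measured. At an unadjusted p under 0.05, 7 were higher and 0 lower (14.3% and 7.29% of all genes tested), and 0 passed an adjusted p of 0.05. The subunits of the immunoproteasome, the form with interferon-inducible proteolytic sites, overlapped between the groups in all 3 cases. Psmb10 had log2 levels of 2.63, 2.38 and 2.66 on the corn oil arrays and 2.64, 3.42 and 3.11 on treated replicates 1, 2 and 3. Treated replicate 1 was thus at the corn oil level while the others lay above it, and the change was 0.50 ± 0.21 (adjusted p = 0.234 in limma). Psmb9 had 1.33, 1.12 and 1.38 against 1.30, 1.92 and 1.79 (0.40 ± 0.18, adjusted p = 0.256). Psmb8 had 0.45, 0.60 and 0.46 against 0.50, 1.23 and 0.95 (0.39 ± 0.19, adjusted p = 0.284). After quantile normalization Psmb8, Psmb9 and Psmb10 had changes of 0.36, 0.33 and 0.39. The size varied with the treated animal left out. The changes of Psmb8, Psmb9 and Psmb10 were 0.22, 0.27 and 0.32 without treated replicate 2, and 0.58, 0.58 and 0.71 without treated replicate 1. The leukocyte markers measured beside them (Ptprc, Cd68, Cd3e, Cd74 and Csf1r, 5 of the 6 listed) had a median change of -0.23, and their summed linear signal was 30.0 to 38.0 times the 75th percentile in corn oil rats and 29.8 to 42.5 times in treated rats. Cd3e, the T cell marker, was well above background on 4 of the 6 arrays. Their part in the result was not tested.

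Of the 5 activators and inhibitors of the core, 4 had treated arrays above all corn oil arrays, beside 20.1% of all genes tested. Psme3, the nuclear activator PA28 gamma, had log2 levels of 2.71, 2.82 and 2.77 on the corn oil arrays and 3.13, 3.39 and 3.28 on the treated arrays, a change of 0.50 ± 0.096 (1.41-fold; adjusted p = 0.113). It was 0.37 after quantile normalization, again without overlap. Both values come from its brightest probe, and the mean over its 2 probes gave a smaller change of 0.25. Psme2, the interferon-inducible PA28 beta, had 4.90, 4.87 and 4.93 against 5.17, 5.43 and 5.35, a change of 0.42 ± 0.093 (adjusted p = 0.126; 0.20 after quantile normalization). Its partner Psme1 had 0.24, the inhibitor Psmf1 0.17, and Psme4, the activator PA200, -0.29 ± 0.22 with overlapping arrays.

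Among assembly chaperones, Psmd9, which helps the ATPase ring to form, had log2 levels of 3.63, 3.91 and 3.88 on the corn oil arrays and 4.21, 4.38 and 4.26 on the treated arrays. Its change was 0.48 ± 0.11 (adjusted p = 0.125). Psmd10, the chaperone gankyrin of the same ring, had 1.58, 1.63 and 1.69 against 1.86, 1.95 and 1.93, a change of 0.28 ± 0.077 (adjusted p = 0.144). Both had gaps between the groups, which stayed after quantile normalization, at 0.31 and 0.21. Psmd5, Psmg2 and Psmg4 had 0.11, 0.13 and 0.37 and overlapped, and Psmg1 and Psmg3 had no named probe.

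Sem1, a small lid component, had log2 levels of 5.53, 5.55 and 5.497 on the corn oil arrays and 5.58, 6.22 and 5.94 on the treated arrays, with treated replicate 1 only just above them (0.39 ± 0.17, adjusted p = 0.238). The ubiquitin receptor Adrm1 (-0.0023) and the deubiquitylase Usp14 (0.077 ± 0.086, adjusted p = 0.623) showed overlapping arrays. Of 12 genes for ubiquitin supply, shuttles and the unfolding complex of Vcp, 2 were higher at an unadjusted p under 0.05 in limma. The share of all genes tested was close to that, at 14.3%. The 2 were the shuttle Rad23b (0.21 ± 0.079, adjusted p = 0.204) and the Vcp cofactor Ufd1 (0.25 ± 0.097, adjusted p = 0.219). After quantile normalization 0 of the 12 were higher at that threshold, beside 8.23% of all genes. Rad23b had 3.12, 3.03 and 3.09 against 3.26, 3.24 and 3.37, and Ufd1 had 1.88, 1.62 and 1.63 against 1.96, 1.95 and 1.95. The polyubiquitin gene Ubb had 0.18, and the ubiquitin-activating enzyme Uba1, Vcp and Nploc4 lay between -0.0079 and 0.013.

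Sqstm1, the autophagy receptor p62 and a target of NRF2, ordered the treated animals differently from the core particle. Its log2 levels were 4.57, 4.58 and 4.67 on the corn oil arrays and 5.09, 4.63 and 5.16 on treated replicates 1, 2 and 3 (0.35 ± 0.15, adjusted p = 0.240). Replicate 2, where the core genes were highest, lay within the corn oil range for Sqstm1. Nfe2l1, the transcription factor that induces proteasome genes, had 0.83, 0.99 and 0.79 against 1.27, 0.997 and 1.103, a change of 0.26 ± 0.11 (adjusted p = 0.235), and was highest on replicate 1. Nfe2l2, which encodes NRF2 itself, had 0.0063 ± 0.075, and Ngly1, the glycanase that activates the Nfe2l1 protein, 3.28, 3.31 and 3.30 against 3.33, 3.30 and 3.33 (0.025 ± 0.069, adjusted p = 0.857). Ddi2, the protease of the same step, had no named probe. The array measures transcripts, so the processing of the Nfe2l1 protein was not measured.

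**Figure D5:**
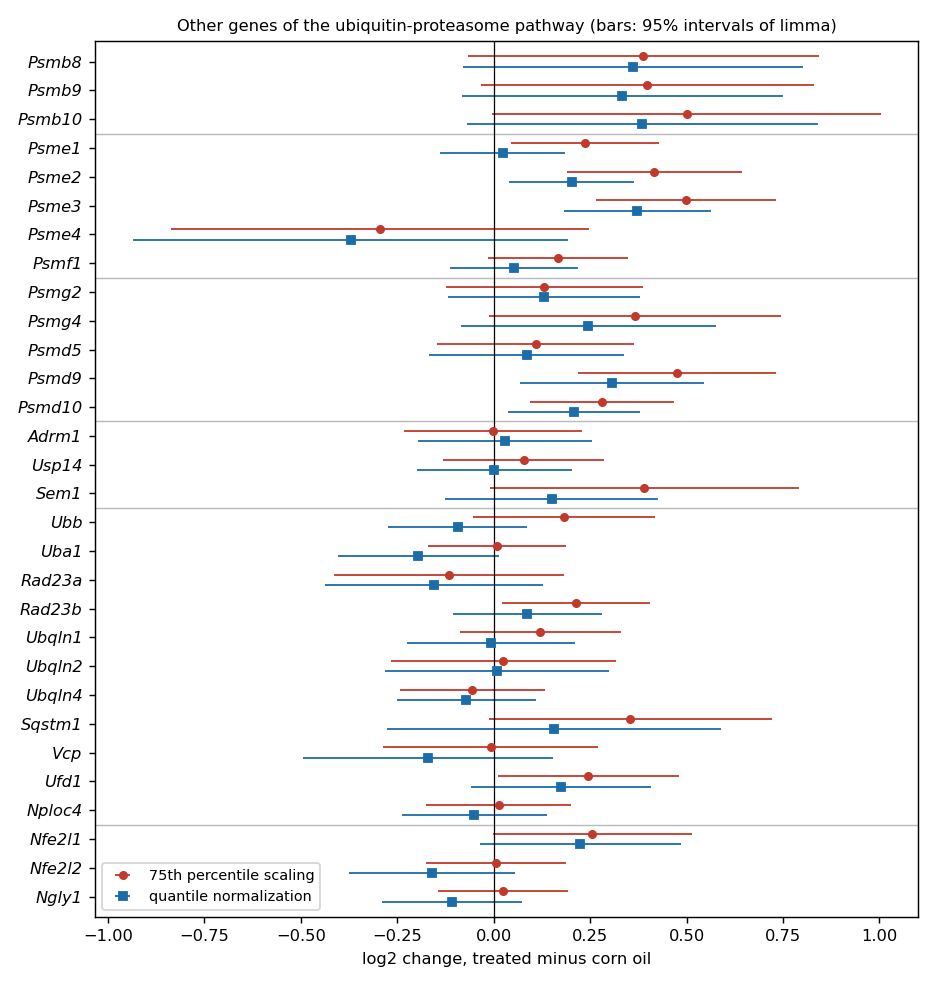
Log2 change of 30 other genes of the pathway (treated minus corn oil) with 75th percentile scaling (circles) and quantile normalization (squares), with 95% intervals of limma, in the order of the lists. With both scalings the intervals of Psme2, Psme3, Psmd9 and Psmd10 lie above 0, and those of the immunoproteasome subunits are wide.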

How the data were processed

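Per the file headers, spots were extracted with Agilent Feature Extraction 10.7.1.1 (the submitters' processing notes name version 10.7), and the deposited intensity is background-subtracted, detrended and linear, with deposited flags beside it. The authors' value table is a deposited ratio of each intensity to its array's 75th percentile, as its values show: the 75th percentile of every column is 1. Column medians are 0.107, 0.105 and 0.106 (corn oil) and 0.103, 0.103 and 0.106 (treated). Its columns match scanner files of other replicate numbers within the same group, and replicate numbers here follow the scanner files.

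Each log2 intensity was set against the 75th percentile of its array, taken over the 61657 probes that are not controls. The filter removed 64 probes with an outlier flag and required a signal well above background throughout either group, which left 40894 probes. Unversioned RefSeq accessions named 27460 probes (GRCr8 gene table), and the brightest kept probe stood for a gene. Groups were compared with lmFit and eBayes (limma 3.58.1, R 4.3.3) over all 11748 genes with Benjamini-Hochberg adjustment, and SE are those of limma. The fit was tested on simulated data. Named genes are the 2 members with the largest and the 2 with the smallest change in each particle, a fixed set (catalytic subunits, Pomp, Psmd4, Psmd14, immunoproteasome subunits, Nfe2l1 and Sqstm1) and the 2 with the lowest p in each pathway list, and others are named to account for every member. A few listed genes that are not members are not reported here by name. Members and lists were chosen with earlier results of these data known. The alternatives, 19 in all, were quantile, cyclic loess, median and spike-in (7 probes) scaling, normexp (offset 50), the authors' table, other filters and probe rules, replicate and slide blocks, trend and robust settings, array weights, and leaving out each array.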

Additional observations from a re-analysis of the deposited data

How the results depend on the processing

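No member passed an adjusted p of 0.05 in limma under any alternative except array weights, with 12 members higher (11.3% of all genes tested were). The lower count at an unadjusted p under 0.05 was 0 under every alternative, beside 4.55% to 20.6% of all genes tested. The higher count of 19 became 1 after quantile normalization, 2 after cyclic loess, 0 after spike-in scaling and 12 with the replicate block. The shares of all genes were then 8.23%, 9.61%, 1.01% and 11.5%, against 14.3% before. The count without overlap, 26, became 10, 12 and 0 under those 3 scalings and 16 after normexp correction. Here the shares of all genes were 12.4%, 14.4%, 1.32% and 23.4%, against 20.1% before. The member median of 0.25 became 0.073, 0.081 and -0.069, the core median 0.10, 0.11 and -0.0026, the regulatory median 0.058, 0.060 and -0.13, and the core contrast 0.045 and 0.049 (quantile and cyclic loess); the cause was not tested. Leaving out 1 array gave 7 to 23 members higher at an unadjusted p under 0.05, beside 8.5% to 20% of all genes. It gave 26 to 30 members higher without overlap, beside 22.8% to 31.8% of all genes. Member medians were then 0.19 to 0.30, core medians 0.23 to 0.39, regulatory medians 0.17 to 0.23 and the core contrast 0.053 to 0.16. The replicate numbers do not pair the arrays (correlations of deviations 0.0065, -0.050 and -0.032 for numbers 1, 2 and 3, and not every array correlated best with its own number), so the block with 12 members higher is given here only. Corn oil replicate 2 was alone on its slide, so the slide block is the fit without it, with 13 members higher (9.57% of all genes). That fit sets row 1 against row 2 of slide 1, so it does not separate row from treatment.

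Of 494 values of 26 named genes, 455 kept direction and side of the threshold, 12 passed it with array weights and 27 reversed. Reversed were, after quantile normalization, Psma7 (-0.013), Psmd2 (-0.22), Psmc3 (-0.044) and Ngly1 (-0.11), and after cyclic loess Psma7 (-0.0072), Psmd2 (-0.21), Psmc3 (-0.046), Usp14 (-9.5e-05) and Ngly1 (-0.11). After spike-in scaling, which lowers every gene alike by 0.32 and so reverses any smaller positive change by construction, they were the following 14: Psmb7 (-0.15), Psma7 (-0.12), Psmc5 (-0.022), Psmd13 (-0.038), Psmd2 (-0.30), Psmc3 (-0.23), Psmd4 (-0.090), Psmd14 (-0.12), Nfe2l1 (-0.063), Psmd10 (-0.038), Usp14 (-0.24), Rad23b (-0.11), Ufd1 (-0.074) and Ngly1 (-0.29). Ngly1 also reversed with normexp (-0.073) and the mean over probes (-0.091), and Psmd2 with array weights (-0.0050) and without treated replicate 1 (-0.0083, where leaving out 1 array gave up to 0.042). Every measured member was well above background on all 6 arrays and none was saturated. The small number of arrays limits the precision, and the size and direction of the changes also depended on the scaling, as given above.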
